A study of Saccharomyces cerevisiae with 1 sample.

Results

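The data describe nucleotides 2361 to 3000 of the 25S ribosomal RNA (rRNA) of Saccharomyces cerevisiae, a stretch that holds about domain V of this RNA. Its members were taken by position alone and number 640 of the 3396 nucleotides of the 25S, or 18.8%. They come from a CRAC experiment of a study on the RNA helicase Dbp6, and from 1 library of the untagged strain BY4742, labelled "no Tag". BY4742 is a laboratory strain with no tagged protein, and it was grown in minimal medium with glucose and without tryptophan before the cells were cross-linked. RNA that came through the purification of such cells is background, not RNA bound by a tagged protein. The library of HTP-tagged Dbp6 was not analysed here, so no value below concerns binding by Dbp6. With 1 library there are no replicates, and the values carry no standard deviation, p-value or test. The number of reads behind the values is unknown, and rRNA received 70.4% of the hits over all RNA classes. The paper states a higher rRNA share for its control and about this share for tagged Dbp6. What lies behind this difference is not known. In the annotation of the R64 assembly the 25S gene RDN25-1 lies on the Crick strand of chromosome XII at 451786 to 455181, and domain V lies at 452182 to 452821. A second copy, RDN25-2, lies at 460923 to 464318 of the same chromosome, and the pileup does not separate reads of the copies.

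Domain V folds into the central part of the peptidyl transferase centre, where the large ribosomal subunit joins amino acids into a chain. Its P loop holds the end of the tRNA in the P site, its A loop holds the end of the tRNA in the A site, and a conserved adenosine lies at the site of the reaction. Many nucleotides of the domain are modified while the subunit is built: box C/D snoRNAs guide ribose methylation, box H/ACA snoRNAs guide pseudouridine formation, and a few bases are methylated by enzymes without a guide. In CRAC, UV light links proteins to RNA in living cells, the tagged protein is purified under native and then denaturing conditions, and the RNA fragments that remain are sequenced. A read adds 1 hit to every nucleotide that it covers. Reverse transcriptase can misread or pass over a nucleotide that was cross-linked, so each nucleotide also has a number of substitutions and a number of deletions. Substitutions and deletions together are called changes here. All 3 measures are given per 100000 reads as deposited, and whether this is a scale or a limit is not known.

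The stretches on which the results turn are printed below as the deposited pileup gives them, 5′ to 3′, with T for U. The first is the dominant peak, nucleotides 2515 to 2613 (chromosome XII, 452569 to 452667), with its 10 most changed nucleotides in capitals. The next stretch follows directly after it (2614 to 2645, 452537 to 452568), and the third surrounds the catalytic adenosine (2803 to 2844, 452338 to 452379). In both of these, capitals mark nucleotides known to be modified. The others are both stretches with more than 500 hits after the peak (2853 to 2899 at 452283 to 452329, and 2936 to 2984 at 452198 to 452246) and the surroundings of the most often changed nucleotides elsewhere. In them, capitals mark nucleotides that were changed in at least 5% of their hits.
Peak 2515 to 2613: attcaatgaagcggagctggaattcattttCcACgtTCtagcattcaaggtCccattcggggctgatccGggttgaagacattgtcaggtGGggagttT
After the peak 2614 to 2645: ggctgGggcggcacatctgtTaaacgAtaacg
Catalytic stretch 2803 to 2844: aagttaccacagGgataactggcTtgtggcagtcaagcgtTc
Plateau 2853 to 2899: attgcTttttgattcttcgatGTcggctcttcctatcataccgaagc
Plateau 2936 to 2984: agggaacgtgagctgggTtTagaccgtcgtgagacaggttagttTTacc
Around 2777: tTagtccctCGGaatttgagg
Around 2472: agtgggagctTcggcgccagt
Around 2401: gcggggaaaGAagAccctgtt
Around 2901: taccgaagcaGaattcggtaa

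Domain V received 64.4% of all hits of the 25S, although it makes up 18.8% of its nucleotides. The mean was 5288 hits per nucleotide in domain V, against 678 in the 25S outside it, a ratio of 7.80. This excess lay almost entirely in 1 peak. The median was 227 hits in domain V (quartiles 124 and 810), against 148.5 outside it, a ratio of 1.53. Without the window from 2530 to 2660, which was set for the peak, the median of domain V was 213 hits and the ratio 1.43. As a ratio of means it was 0.981, below 1, so its direction depended on the measure. The mean behind this ratio, 665 hits, still held the start of the peak, which lies before the window. Without the window and the run above 10% of the peak's maximum the mean of domain V was 346 hits, against 678 outside domain V. Hits of at least 10 times the median of the whole 25S (1700 hits or more) were found at 99 of the 640 nucleotides, or 15.5%, against 9.28% of all 25S nucleotides. This share was not particular to domain V, since it was 15.8% in domain IV and 21.7% in domain VI. The 99 nucleotides of domain V form the unbroken stretch from 2515 to 2613 printed above, and no other nucleotide of domain V reached this level. Every nucleotide of domain V had at least 8 hits, as did every nucleotide of domains III and VI, and the 39 nucleotides without a hit lay in domains I (23), II (12) and IV (4). Among the other domains, cut at approximate positions like domain V itself, the median was 443 hits in domain III, 361 in domain VI, 174 in domain I, 118.5 in domain II and 78.5 in domain IV. Apart from its peak, domain V therefore lay within the range of the other domains.

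**Figure D1:**
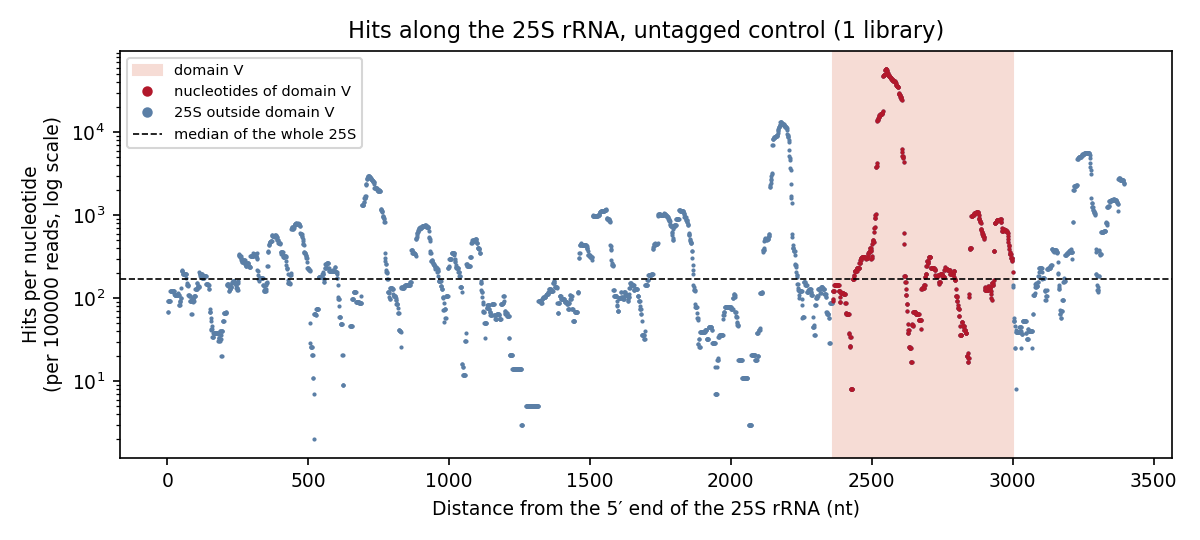
Hits per nucleotide (per 100000 reads, log scale) against the position along the 25S rRNA in the untagged control library, with 1 point per nucleotide, domain V in red and the rest in blue, and the median of the whole 25S (170 hits) as a dashed line. The peak of domain V reaches 57549 hits, above the peaks of domain IV (13435) and domain VI (5685), and nucleotides with no hit are not drawn.

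The peak reached 57549 hits at T2551, which was 339 times the median of the 25S. Its maximum was 4.28 times that of the peak in domain IV (13435 hits at nucleotide 2178) and 10.1 times that of the peak in domain VI (5685 hits at nucleotide 3252). The window from 2530 to 2660 held 90.0% of the hits of domain V and 58.0% of those of the 25S. It did not match the peak's own borders, since hits were above 10% of the maximum from 2519 to 2608. This run of 90 nucleotides held 94.0% of the hits of domain V, and the window cut off its first 11 nucleotides, while the end of the window held few hits. At 50% of the maximum the peak ran from 2540 to 2598, a width of 59 nucleotides, close to the 60 nucleotides of the domain IV peak (2147 to 2206) and above the 50 of the domain VI peak (3229 to 3278).
The peak was lopsided. At 50% of the maximum, 11 nucleotides lay before the maximum and 47 after it, against 31 and 28 in the domain IV peak and 23 and 26 in the domain VI peak. At 75% of the maximum it ran from 2540 to 2574, so that both levels shared the same left edge. At 25% the run was 85 nucleotides long, from 2522 to 2606.

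The left side of the peak was made of sharp steps. From C2539 to A2540 hits increased by 29143, or 50.6% of the maximum, with 18321 hits at C2539 and 47464 at A2540. Further steps of 9501 hits from C2518 to A2519 and of 7223 hits from C2546 to A2547 were the next largest. A smaller step of 2815 hits marked the foot of the peak, from T2514 (1030 hits) to A2515 (3845 hits). All 4 of these steps ended on an A.
On the right side the hits declined slowly and then dropped. The largest drop lay between G2606 (24577 hits) and G2607 (6248 hits), where hits fell by 31.8% of the maximum, a 3.93-fold difference. From C2594 to A2595 hits fell by 5168, and from T2613 to G2614 they fell by 3825, leaving 606 hits. The drop at T2613 was the steepest in relative terms among these 3, at 7.31-fold, and it closed the peak.

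**Figure D2:**
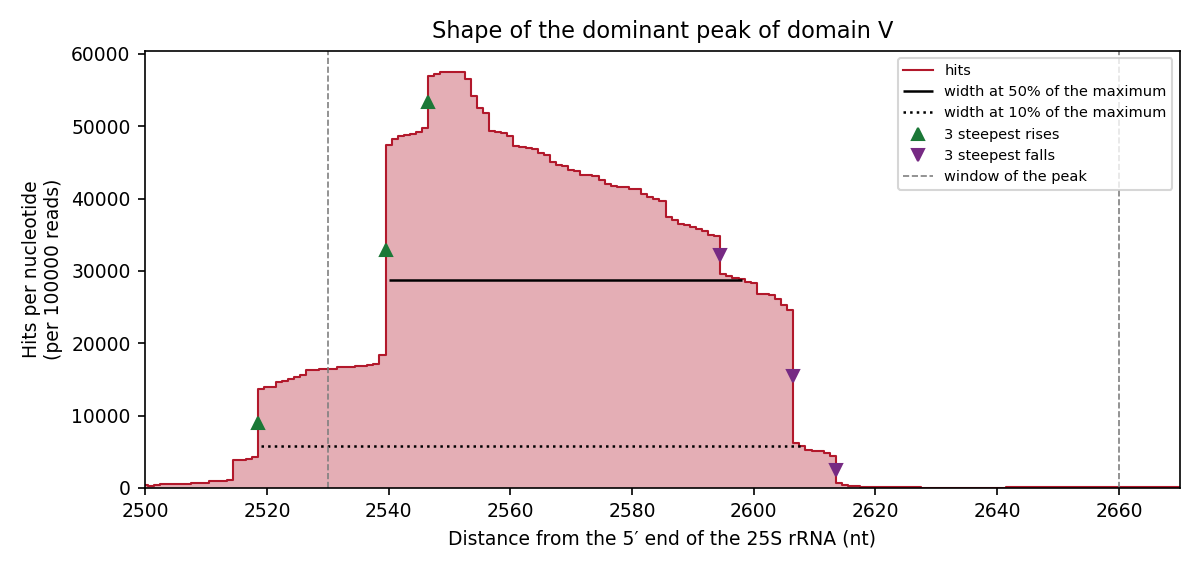
Hits per nucleotide (per 100000 reads) against the position along the 25S rRNA around the dominant peak of domain V, with its widths at 50% (59 nucleotides) and 10% (90 nucleotides) of the maximum as horizontal lines, its 3 steepest rises and falls as triangles, and the borders of the window as dashed vertical lines. The left side climbs in steps at 2519, 2540 and 2547, and the right side slopes from 2551 to 2606 before it drops.

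These steps divided the peak into terraces. The first terrace, from 2519 to 2539, had a mean of 15963 hits and held 9.91% of the hits of domain V. The second, from 2540 to 2546, had a mean of 48696 hits, and the summit from 2547 to 2553 had a mean of 57245 hits. Within the summit the hits varied little, between 56532 and 57549. A long slope followed from 2557 to 2594, with 49389 hits at its start and 34777 at its end. This slope was the bulk of the peak, with 47.4% of the hits of domain V. The mean then was 27496 hits from 2595 to 2606 and 5249 hits from 2607 to 2613. No separate second summit was found: with a prominence of at least 5% of the maximum required, the window held 1 local maximum, and the same number was found at 2% and at 10%. The remaining local maxima of the window, at 2630, 2642 and 2647, lay beyond the peak, where A2647 had 69 hits. From 2639 to 2641 the window had only 17 hits per nucleotide.

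Few of the hits in the peak carried a change. In the window, 0.658% of hits were changed, and 13.6% of the changes were deletions. Taken down to 10% of its maximum, the peak had 0.633% changed hits, with 12.5% deletions among the changes. The peak of domain IV, taken in the same way, had 3.26% with 58.1% deletions, and that of domain VI had 0.509% with 6.50% deletions. The peak of domain V thus resembled the domain VI peak more than the domain IV peak in both measures. Over the 94 nucleotides of the window with at least 100 hits, the median was 0.440% of hits changed, with a range from 0% to 11.8%. Of these nucleotides, 42 had no deletion at all.

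The changes that did occur were concentrated. The 10 most changed nucleotides carried 44.1% of the changes of the window, and the first 2 of them, C2545 and G2605, carried 20.4%. C2545, in the second terrace, had 2186 substitutions and no deletion in 49235 hits (4.44%). G2605, which lies next to the last nucleotide before the largest drop, had 1907 substitutions and no deletion in 25336 hits (7.53%). C2545 thus lay beside the summit, and G2605 near the right edge. G2606, the last nucleotide before the drop, had 439 substitutions (1.79%), and C2566 and G2584 on the slope had 384 and 354 changes.
Deletions had their own places. A2547 had 527, C2548 had 528 and T2551 had 532 deletions, in up to 57549 hits. At these 3 nucleotides of the summit the deletions exceeded the substitutions, which numbered 186, 229 and 243. The nucleotides between them, G2549 and T2550, had 2 and 1 deletions, and C2552 beside them had 808 substitutions and 2 deletions. A pileup does not show whether the same reads carried these deletions. At the foot of the right side, T2612 and T2613 had 100 deletions each, and T2613 also had 423 substitutions, so that 11.8% of its 4431 hits were changed. This was the highest share of the window. Together these 5 nucleotides and C2572 (126 deletions) were the 6 nucleotides of the window with at least 100 deletions.

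**Figure D3:**
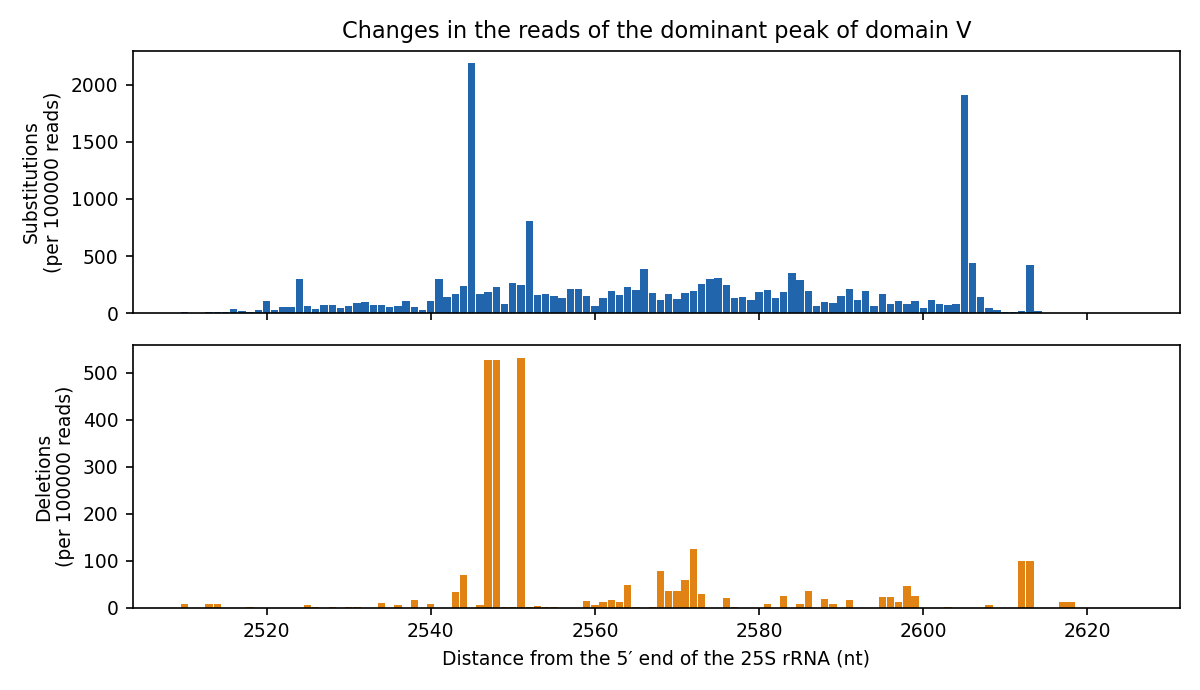
Substitutions (upper panel) and deletions (lower panel) per 100000 reads against the position along the 25S rRNA, with 1 bar per nucleotide. Substitutions are highest at 2545 (2186) and 2605 (1907), and deletions at 2551 (532), 2548 (528) and 2547 (527).

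By section, the share of changed hits was highest from 2607 to 2613, at 2.42%, and T2613 had 523 of the 889 changes there. The 12 nucleotides from 2595 to 2606 had 1.04%, with 1907 of their 3416 changes at G2605. The second terrace had 1.00%, with 2186 of its 3414 changes at C2545. The first terrace had 0.475% and the slope 0.468%. The lowest share, 0.284%, was found from 2554 to 2556. The summit had 0.889%, and there 1595 of the 3562 changes were deletions.

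The remaining 509 nucleotides of domain V held 10% of its hits. Their median was 213 hits (quartiles 126 and 407), and their highest value, 16399 hits at A2529, belonged to the shoulder of the peak that the window cut off. Without the shoulder, 498 nucleotides had a mean of 346 hits. After the peak the hits dropped to as few as 17 per nucleotide and later formed low plateaus. The highest local maxima beyond the shoulder, at least 50 nucleotides apart, were A2872 with 1098 hits, A2956 with 908, T2472 with 319, A2702 with 316 and C2760 with 238.
Both of the higher maxima topped a plateau. Hits were at least 500 from 2853 to 2899, a run of 47 nucleotides with a mean of 896 hits, and from 2936 to 2984, a run of 49 nucleotides with a mean of 756 hits. The first plateau began with a step from 402 hits at C2852 to 972 at A2853 and ended with a step to 136 hits at A2900. The second began with a step from 373 hits to 810 at A2936. The plateaus held 1.24% and 1.09% of the hits of domain V, so neither approached the dominant peak.

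Long stretches of domain V were thinly covered. Fewer than 100 hits were found at 125 of its nucleotides, most of them in 3 stretches. The stretch from 2624 to 2675 had a median of 55 hits over 52 nucleotides, the stretch from 2803 to 2844 a median of 42 over 42 nucleotides, and the stretch from 2406 to 2431 a median of 51.5 over 26 nucleotides. The lowest value of the domain, 8 hits, was shared by the nucleotides from 2426 to 2431. There the coverage returned in 1 step, to 170 hits at A2432.

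Outside the window 0.911% of hits were changed, and 27.1% of the changes were deletions. Without the shoulder the values were 1.28% and 37.3%, so the pooled shares of changed hits and of deletions were higher than in the peak. By the median over nucleotides with at least 100 hits the order turned, with 0.332% of hits changed outside the window against 0.440% in it. At least 5% of hits were changed at 30 of the 515 nucleotides of domain V with at least 100 hits, or 5.83%, against 6.07% of such nucleotides over the whole 25S. The count of frequently changed nucleotides in domain V was thus near the background of the molecule. Of the 30, 4 lay in the window (G2605, T2613, T2617 and G2618) and 26 outside it. Before the window 4 of 139 nucleotides were changed this often, and after it 22 of 282, or 7.80%.

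**Figure D4:**
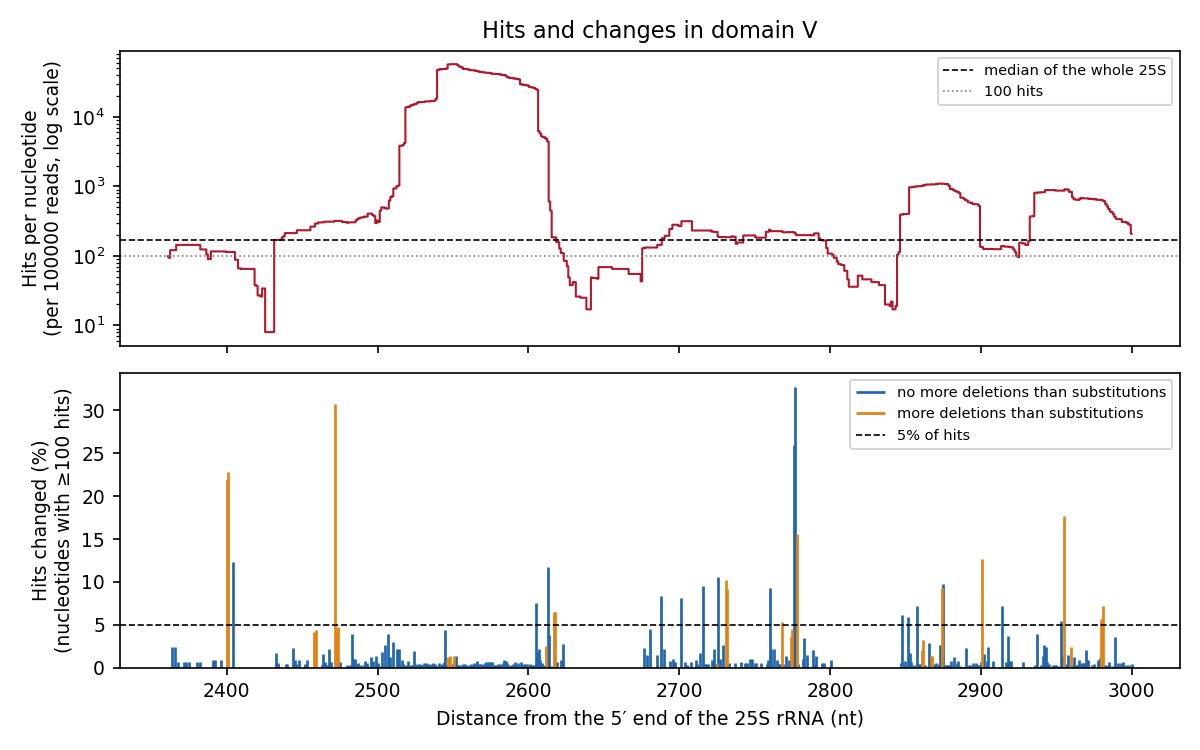
Upper panel, hits per nucleotide (per 100000 reads, log scale) along domain V, with the median of the 25S (170 hits) and the level of 100 hits as lines. Lower panel, percent of hits changed at nucleotides with at least 100 hits, coloured by whether deletions exceeded substitutions; the tallest bars are at 2777 (32.7%), 2472 (30.7%) and 2776 (25.9%).

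Of the most often changed nucleotides outside the window, some were neighbours and others stood alone. G2777 was changed in 32.7% of its 211 hits (44 substitutions and 25 deletions), and its neighbours C2776 and G2778 in 25.9% and 15.6%. T2472 had 98 deletions and no substitution in 319 hits (30.7%). Upstream of it, G2400 and A2401 had 25 deletions each in 114 hits, and A2404 had 14 substitutions and no deletion in 114 hits (12.3%). The kind of change thus differed between nucleotides a few positions apart. T2955, in the second plateau, had 16 substitutions and 138 deletions in 870 hits (17.7%). G2901, just after the first plateau, was changed in 12.7% of 134 hits, and C2726 had 20 substitutions and no deletion in 190 hits (10.5%). These counts were small beside those of the peak, where C2545 alone had 2186 changes.
Over the 26 nucleotides outside the window, deletions exceeded substitutions at 12 and did not at 14, and 10 had no deletion. By base, the 30 frequently changed nucleotides of domain V were 14 of 140 T, 10 of 141 G, 4 of 96 C and 2 of 138 A with at least 100 hits. In the 25S outside domain V they were 36 of 449 T, 33 of 541 G, 16 of 365 C and 29 of 504 A. Among the plateaus, the one from 2853 to 2899 had 1.37% of hits changed with 38.3% deletions, and the one from 2936 to 2984 had 1.44% with 44.1% deletions. In both, the pooled share of changed hits was higher than in the dominant peak.

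The landmarks of the peptidyl transferase centre lay within domain V but outside the peak. The P loop was located by the motif CTGGGGCGG, searched on the strand of the rRNA, which occurred once in the 25S, at 2616 to 2624. It had between 85 and 185 hits per nucleotide, directly after the drop that closed the peak, and T2617 and G2618 in it had 12 deletions each. The stretch of the catalytic adenosine, located by GATAACTGG at 2816 to 2824, lay in the thin stretch from 2803 to 2844. It had between 36 and 52 hits and 0.746% of them were changed. The conserved stretch TTTAGACCG at 2953 to 2961 lay at the top of the second plateau, with between 699 and 908 hits and 3.34% of hits changed. A further motif, CTGTTCG, searched for the A loop, had 0 matches, and the A loop was read through its modified nucleotides instead. T2921, G2922 and T2923 had 133, 124 and 114 hits and no change. The peptidyl transferase centre was therefore covered unevenly, and none of these landmarks had more than 908 hits.

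Domain V holds 25 nucleotides of a list of known modifications, and the base of all 25 matched the deposited sequence. The list was written from general knowledge of yeast rRNA. Only the methylated uridines T2634 and T2843 were changed in 5% of hits or more. Both carry a methyl group on the base-pairing face (m3U), and no guide RNA is known for them. T2634 had 13 substitutions in 26 hits (50%) and T2843 had 5 in 17 (29.4%), with no deletion at either. Pooled, 41.9% of their 43 hits were changed. This rests on few hits, both nucleotides lie in thin stretches, and what brought the changes about was not tested. The 5-methylcytidine C2870, whose methyl group lies away from the pairing face, had 6 changes in 1071 hits (0.560%). The 8 pseudouridines had 17 changes in 3937 hits (0.432%), with at most 0.764% at any of them. The 14 ribose-methylated nucleotides had 16 changes in 3966 hits (0.403%), with the highest share, 2.67%, at T2729. Each of these other classes lay below the pooled share of changed hits of domain V, 0.684%, and of domain V outside the window, 0.911%.
Other thinly covered nucleotides were also changed often. Of the 125 nucleotides with fewer than 100 hits, 104 had no change, 16 had 1 or 2, and 5 had at least 3. Besides T2634 and T2843 these were C2812 (13 of 46 hits, 28.3%), T2835 (9 of 38 hits, 23.7%) and A2647 (4 of 69 hits, 5.80%), and all 5 had substitutions only. These 3 further nucleotides are not on the list of modifications.

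The snoRNAs that guide the modifications of domain V were themselves recovered in the control. Of the 18 guides listed, 17 were found in the deposited table, with values between 10 RPM (hits per 1000000 reads, SNR46, which guides pseudouridine 2865) and 1590 RPM (SNR52, which guides ribose methylation at 2921). SNR38, the guide for ribose methylation at 2815, had 1300 RPM. Their median was 363 RPM, against 175.5 RPM for the other 50 RNAs of the table. By sum they made up 23.5% of the hits of the snoRNA class. This was no more than their share by number in the table, 17 guides beside 50 others, so the sum did not mirror the higher median. SNR34 was not analysed here. These extremes were not mirrored by their targets, since nucleotide 2865 had 1065 hits in the 25S and nucleotide 2921 had 133.

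Over the whole of domain V, 0.684% of hits were changed, against 1.81% in the 25S outside it. Deletions made up 15.4% of the changes in domain V and 48.1% outside it. Much of the difference lay in the peak of domain IV: without that peak, 0.959% of hits outside domain V were changed, and 28.0% of the changes were deletions. Among the other domains the share of changed hits was 3.15% in domain IV, 1.25% in domain III, 1.19% in domain I, 0.954% in domain II and 0.723% in domain VI. Domain V was therefore the lowest of the 6 when hits were pooled. That rank held only with its peak: without the window and the shoulder, 1.28% of hits were changed, above all of these domains except domain IV. The order was not the same for single nucleotides, among which the peak does not weigh more than the rest. The median share of changed hits per nucleotide was 0.366% in domain V, against 0.309% in the 25S outside it.

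**Figure D5:**
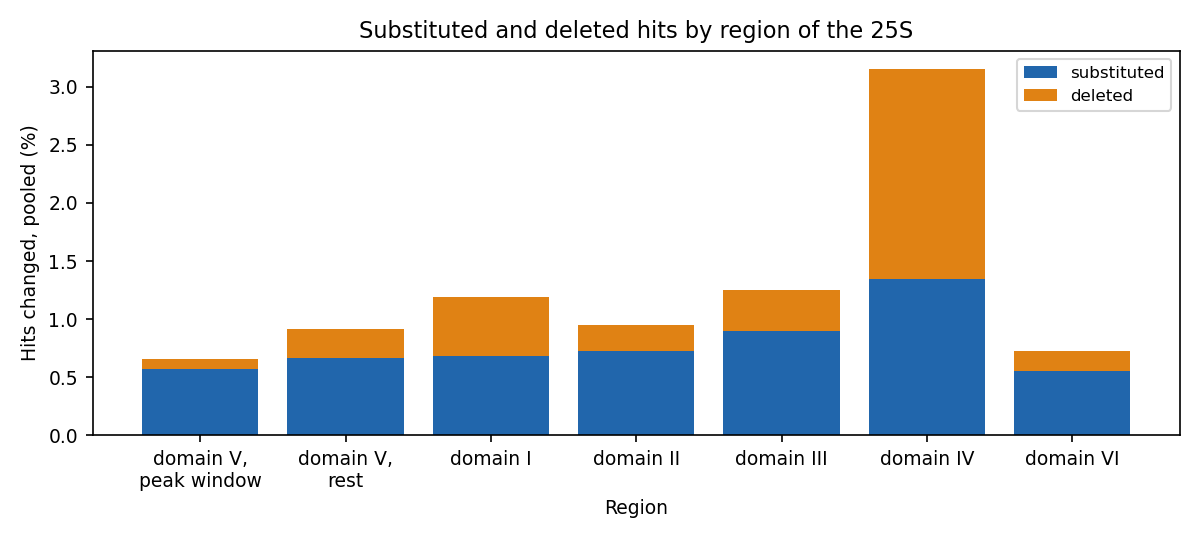
Percent of hits substituted and deleted, pooled over the nucleotides of the peak window, of the rest of domain V and of each other domain of the 25S, as stacked bars. The peak window (0.658%) and the rest of domain V (0.911%) lie below domain IV (3.15%), in which deletions make up 57.4% of the changes. The rest of domain V includes the shoulder of the peak, and without the shoulder its share is 1.28%.

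The order of the bases depended on the region and on the measure. Over nucleotides with at least 100 hits, 0.828% of hits at C, 0.759% at G, 0.538% at T and 0.505% at A were changed in the window. In the rest of domain V, T stood apart with 1.63% of hits changed (0.929% substituted and 0.703% deleted), against 0.752% at C, 0.75% at G and 0.674% at A. This rest still held the shoulder of the peak that the window cut off, whose hits lay mostly on A and G. The pooled shares of A and G therefore rest largely on the shoulder, and shares by base without it were not computed. In the 25S outside domain V, T was also the most changed base with 3.74%, followed by G with 1.41%, A with 1.04% and C with 0.729%. The pooled order in the window rests largely on single nucleotides, since C2545 alone had 2186 changes. By the median over nucleotides, C was the lowest base of the window with 0.392%, below T (0.432%), A (0.441%) and G (0.524%). By the same measure T was the highest in the rest of domain V with 0.543%, whereas outside domain V the median was 0.384% at A and 0.365% at T. Nucleotides of 1 pileup share fragments, so these shares are given without a test.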

How the data were processed

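1 CRAC library of the untagged strain was used. Per the methods, the authors trimmed reads with Flexbar, aligned them with Novoalign and counted them with pyCRAC; the submitters' processing notes name Novoalign and the R64 build. The deposited values are whole numbers per 100000 reads (25S pileup) or per 1000000 reads (RNA classes and snoRNAs) and were treated as a score, not as counts. Whether they were scaled or limited to that many reads is not known. The depth is therefore unknown, no interval or floor was computed, and reads amplified by PCR are not independent molecules.

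Shares, medians, runs around the maximum, steps between neighbours and percent of hits changed were computed in Python 3.11.15 with pandas 2.3.3 and numpy 2.4.6 (figures: matplotlib 3.10.9), and the functions were tested on simulated data. Counts, medians and ranks of the percent changed per nucleotide required 100 hits, except that modified and thinly covered nucleotides were also given below it, with their hits. Gene positions came from RefSeq's R64 table. The text names the maximum and edges of the peak, its 3 largest rises and falls, its 10 most changed nucleotides, and in the rest of domain V the 5 highest maxima, the lowest nucleotides, the 10 with the highest percent changed, the modified nucleotides and the landmarks. Others were added after their values were seen. The members and lists were chosen with earlier results of these data known. Alternatives covered region edges, thresholds, smoothing and the kind of change. With 1 library, no test was made.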

Additional observations from a re-analysis of the deposited data

How the results depend on the processing

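Shares, percentages and ratios had to keep their first 3 significant digits to count as unchanged, and counts and widths had to stay within 1.5 times. Of 29 alternatives, 8 left the value unchanged, 20 moved it and 1 turned its direction. No paired analysis was possible because the data hold 1 library, and no replicate could be left out. The share of 25S hits in domain V, 64.4%, became 65.8% without the 50 nucleotides at each end of the 25S, 64.5% with the edges of the domain 30 nucleotides further out, 64.1% with them 30 nucleotides further in, and 15.3% without the peak window. The share of domain V hits in the peak, 90.0%, became 95.6% in a window 20 nucleotides wider on each side, 69.8% in one 20 nucleotides narrower, and 94.0% in the run above 10% of the maximum. The width of 59 nucleotides became 90 at 10% and 35 at 75% of the maximum. The maximum moved from 2551 to 2550 with a mean over 5 nucleotides. The percent of hits changed in domain V, 0.684%, became 0.578% for substitutions and 0.105% for deletions alone, 0.683% over nucleotides with at least 100 hits, and 0.628% without the most changed nucleotide. The 30 nucleotides changed in at least 5% of hits became 73 at 2%, 12 at 10%, and 9 with a minimum of 500 hits, which tests fewer nucleotides. The ratio of medians outside the peak window, 1.43, turned to 0.981 as a ratio of means, in which the shoulder of the peak still counts, and the cause was not tested. Alternatives chosen after seeing the data gave, for the 87.4% of rises on A, 83.9% without nucleotides 2519 to 2660 and 42.2% by number of rises. For the 0.911% of hits changed outside the window they gave 1.28% without the shoulder.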

Other observations

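In domain V the hits increased mostly onto an A. The differences between neighbouring nucleotides where hits increased summed to 60274, and 87.4% of this sum fell on an A, although A makes up 26.6% of its nucleotides. The dominant peak, with its steps at A2519, A2540 and A2547, carries most of this sum. In domain V without the peak, but with its foot left in, the share was 83.9% of a sum of 6883. This smaller sum still held the step of 2815 hits from T2514 to A2515, which is onto an A. The share without that step was not computed, so the 83.9% is not free of the peak. In the 25S outside domain V the share on A was 70.8%. The steps at the starts of the plateaus, at A2853 and A2936, and the return of coverage at A2432 were also onto an A. Counted by number, 19 of the 45 increases of at least 50 hits in domain V were onto an A (42.2%), 11 of 18 in domain V without the peak (61.1%), and 72 of 98 in the 25S outside domain V (73.5%). By number domain V was thus lower than the rest of the 25S, and by sum it was higher. The base before the increase was mostly C in domain V (81.4% of the sum) and mostly T in domain V without the peak (73.5%) and in the 25S outside domain V (50.3%). The 73.5% includes the step of 2815 hits from T2514 to A2515, at the foot of the peak. Decreases were spread more evenly over the base that preceded them, with 47.9% of the sum after G in domain V and 7.52% after A. An increase is the number of reads that start at a nucleotide less those that end before it, so single read starts are not seen. This pattern was noticed in the data and is given as a description, and no cause was tested.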
